A study of Mus musculus with 12 samples.

Results

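The MHC class I presentation genes were followed in gonadal white adipose tissue as a set of 10: the classical heavy chains H2-K1 and H2-D1, the light chain B2m, the peptide transporter and loading genes Tap1, Tap2 and Tapbp, the inducible proteasome subunits Psmb8, Psmb9 and Psmb10, and the regulator Nlrc5. They were taken by gene symbol from a table of 55281 genes, for their known roles and with earlier results of these data known. Each symbol matched a gene, and 10 of the 10 were among the 18074 genes with enough counts to be tested.

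Polyadenylated RNA was sequenced from the gonadal fat of male mice in 4 groups of 3 libraries. WT mice were Hoip fl/fl AdipoQ.Cre- and HoipA-KO mice were Hoip fl/fl AdipoQ.Cre+, so both genotypes carried the floxed alleles of Hoip (Rnf31), and the Cre driven by the adiponectin promoter removed the gene in mature adipocytes only. From 6 weeks of age the animals ate either a control diet with 14% fat (CD) or a high-fat diet with 60% fat (HFD) for 16 weeks, and they were 22 to 24 weeks old at harvest. Each library held the tissue of 3 pooled mice, so animals could not be compared within a pool. Controls were Cre-negative littermates, and the Cre line has a mixed B6 and FVB background. The H-2 haplotype of the animals, which sets the sequence of the class I heavy chains, is not given in the sources used here.

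Class I molecules show peptides from inside the cell to CD8 T cells and to receptors of natural killer cells. The peptides are cut by the proteasome, whose constitutive catalytic subunits Psmb5, Psmb6 and Psmb7 can be replaced by Psmb8, Psmb9 and Psmb10 to form the immunoproteasome. TAP, made of Tap1 and Tap2, pumps peptides into the endoplasmic reticulum, tapasin (Tapbp) holds the empty heavy chain beside TAP, and B2m is required for the finished molecule to leave. Interferon gamma induces the whole pathway, Nlrc5 is its transactivator, and NF-κB acts on the promoters of the heavy chains and B2m. HOIP is the catalytic subunit of the complex that builds linear ubiquitin chains, which take part in NF-κB signalling.

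On GRCm38, 7 of the 10 genes lie on chromosome 17 within the MHC and 3 lie elsewhere. Psmb9, Tap1, Psmb8 and Tap2 are neighbours within 34.3 kb (chr17:34181987-34216321). Psmb9 lies on the minus strand and its annotated 5′ end overlaps that of Tap1, on the plus strand, by 212 bases. H2-K1 (chr17:33996017-34000347, minus strand) and H2-D1 (chr17:35262730-35267499, plus strand) flank that block, and Tapbp lies at chr17:33915899-33929292. B2m is at chr2:122147686-122153083, Psmb10 at chr8:105935735-105938444 and Nlrc5 at chr8:94434356-94527272.

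RefSeq promoter windows, from 250 bases before the start of a gene to 50 after it, were at hand for 8 of the 10 genes, with none for Tap2 or Nlrc5, and were searched on both strands for short motifs. The NF-κB motif stood in the windows of H2-K1, H2-D1 and B2m, 3 of the 8, against 8.46% of the 32851 windows of all genes. The interferon-response spelling, GAAA followed after 2 bases of any kind by GAAA again, was found in B2m alone (3.44% of all windows), and the palindromic spelling TTCNNNGAA in Psmb8 alone (8.3%). TGACGTCA, the cyclic AMP response element, was in none of the 8 windows (1.79%), and ATTGG, the CCAAT box read on the other strand, was in 6 (37.4%). The windows of Tap1 and Psmb9 share 275 bases. The 30 bases around each match to the first 3 spellings are printed 5′ to 3′ on the strand of the gene. They are shown because both heavy chains held the NF-κB motif, while edgeR called H2-D1 alone of them between genotypes on CD. The fold changes of the 2 heavy chains were not tested against each other, and a part of the motif in them was not tested. Capitals mark the motif matches.
H2-K1 (chr17:34000439-34000468, minus strand): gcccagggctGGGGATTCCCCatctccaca
H2-D1 (chr17:35262913-35262942, plus strand): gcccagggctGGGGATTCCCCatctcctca
B2m (chr2:122147544-122147573, plus strand): acatGAAACTGAAAatgGGAAAGTCCCttt
Psmb8 (chr17:34198087-34198116, plus strand): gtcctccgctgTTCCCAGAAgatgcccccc
The stretches of H2-K1 and H2-D1 were the same at 29 of 30 bases. The capitals in B2m are the interferon-response spelling followed by the NF-κB motif. The stretches of H2-K1 and B2m lie outside annotated exons of their genes, whereas those of H2-D1 and Psmb8 lie inside the first exon of a longer annotated transcript. A match describes these letters only.

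Libraries held 30513500 to 60540260 assigned counts. Replicate libraries correlated at r = 0.970 or above in the other groups, but WT CD replicate 3 correlated at 0.785 and 0.794 with its fellow libraries, and those at 0.907 with each other. WT CD replicate 2 carried 15010 CPM of epididymal epithelium markers (CPM being counts scaled to a common library size), against 0.853 and 8.46 CPM in replicates 1 and 3, and HoipA-KO HFD replicate 1 carried 1312 CPM. WT CD values are therefore the least certain. The deposited tables of comparisons with WT CD carry columns for WT CD replicates 1 and 2 but not 3, so results for the set that rest on WT CD are also given over the 11 libraries without replicate 3. Rnf31 was at 12.8 to 21.2 CPM in WT and 17.8 to 22.5 CPM in HoipA-KO libraries, a count of the whole gene in whole tissue that does not check an adipocyte deletion. Of 10 adipocyte markers, 8 fell in HoipA-KO on CD, from a summed 16720 to 56590 CPM in WT to 14510 to 14700 CPM. Of 9 macrophage markers, 8 rose, from 387 to 691 CPM to 12140 to 15810 CPM, with WT HFD at 2037 to 6513 CPM and HoipA-KO HFD at 7953 to 14330 CPM. In whole tissue, fewer cells of a type and less RNA per cell cannot be told apart.

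Per kilobase of exon, B2m was the most abundant of the 10, with a mean over the 12 libraries of 1743 RPKM (CPM divided by the exon length in kilobases). H2-D1 followed at 630 RPKM and H2-K1 at 328 RPKM, and these 3 genes held 94.57% of the summed RPKM of the set. Tapbp stood at 81.8 RPKM, and the remaining genes were far lower, from 26.7 RPKM for Psmb10 through 16.4 for Psmb8, 15.8 for Tap2, 5.97 for Tap1 and 5.64 for Psmb9 to 2.56 RPKM for Nlrc5. The fewest counts behind any value of the set were 536, for Psmb9 in a WT CD library, so counting error was small beside the spread between libraries. The highest library exceeded the lowest by 2.14 times for Tapbp and by 5.90 times for Psmb8.

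Deletion of Hoip under CD went with more RNA of part of the set. Psmb8, H2-D1 and Psmb10 were higher in HoipA-KO than in WT tissue on CD, by 2.50-, 2.11- and 2.10-fold, while H2-K1, B2m and Nlrc5 had estimates slightly below 0. In all, 3 of the 10 genes passed an adjusted p of 0.05 upward and 0 downward (edgeR's quasi-likelihood test, Benjamini-Hochberg over all genes). Of all genes tested, 15.6% were called higher, 19.1% lower and 34.7% in either direction. The share of the set called in either direction was thus no larger than that of all genes. Its 3 calls were all upward, beside the 15.6% of all genes called higher. Without WT CD replicate 3 the same 3 genes were called higher and 0 lower, where 18.9% and 18.8% of all genes were. DESeq2 called 4, Tap1 (adjusted p = 0.0308) beside them, with 38% of all genes called. Without WT CD replicate 1 edgeR called 5, the 3 with Tap1 and Tap2, but 42.6% of all genes were then called. The median log2 fold change was 0.55 over the 10 genes and -0.21 over all genes.

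Psmb8 encodes the inducible chymotrypsin-like subunit. In order of replicate number, its normalised counts on CD were 35.7, 25.3 and 17.1 CPM for WT and 68.0, 53.2 and 73.9 CPM for HoipA-KO. The HoipA-KO libraries all stood above the WT libraries. The log2 fold change was 1.32 (SE 0.278, adjusted p = 0.00646), and 1.13 (adjusted p = 0.00679) without WT CD replicate 3.

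H2-D1, a classical heavy chain, was at 1355, 975 and 596 CPM in WT CD and at 2008, 1905 and 2268 CPM in HoipA-KO CD. Again no WT library reached the lowest HoipA-KO library. The log2 fold change was 1.08 (SE 0.299, adjusted p = 0.0204), and 0.86 (adjusted p = 0.0193) over 11 libraries. Psmb10, the inducible trypsin-like subunit, was at 39.2, 21.5 and 16.4 CPM in WT CD and at 53.1, 40.9 and 67.5 CPM in HoipA-KO CD, a log2 fold change of 1.07 (SE 0.313, adjusted p = 0.0257) or 0.86 (adjusted p = 0.0394) over 11 libraries. Its lowest HoipA-KO library stood just above the highest WT library. The calls of H2-D1 and Psmb10 were not firm: H2-D1 had an adjusted p of 0.0557, 0.0568 and 0.0686 when HoipA-KO CD replicate 1, 2 or 3 was left out, and Psmb10 one of 0.0646, 0.0617 and 0.0914 without WT CD replicate 2, HoipA-KO CD replicate 1 or HoipA-KO CD replicate 3. The share of all genes called fell as well, from 34.7% to 16%, 14.6% and 18.4% without HoipA-KO CD replicate 1, 2 or 3. Without WT CD replicate 2 it was 36%.

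The second heavy chain and the light chain were not called. H2-K1 was at 812, 1380 and 448 CPM in WT CD and at 841, 625 and 884 CPM in HoipA-KO CD. B2m, the shared light chain, was at 1514, 1935 and 636 CPM in WT CD and at 1274, 1130 and 1233 CPM in HoipA-KO CD. The WT libraries of both genes reached above and below all HoipA-KO libraries. The log2 fold change was -0.17 for H2-K1 (95% interval -0.97 to 0.63, adjusted p = 0.734) and -0.17 for B2m (95% interval -0.92 to 0.59, adjusted p = 0.720). Both estimates changed sign with the WT CD libraries used: without replicate 2, the library with epididymal markers and the highest WT CD value of both genes, they were 0.32 and 0.18, and without replicate 3, the lowest, they were -0.44 and -0.47 (adjusted p = 0.226 and 0.0775). DESeq2 over those 11 libraries called B2m lower (adjusted p = 0.0063), with 40.3% of all genes called.

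Tap1 was at 24.6, 21.4 and 14.3 CPM in WT CD and at 36.5, 26.9 and 34.5 CPM in HoipA-KO CD. Its libraries did not overlap either, yet it missed the threshold (log2 fold change 0.70, SE 0.261, adjusted p = 0.0603). With Tap1, 4 genes of the set had all HoipA-KO libraries above all WT libraries on CD, as had 20.1% of all genes, and 0 had them all below, as had 19.3%. Nlrc5, the transactivator of the pathway, was at 27.1, 14.8 and 15.5 CPM in WT CD and at 16.9, 18.5 and 16.8 CPM in HoipA-KO CD, with a log2 fold change of -0.14 (95% interval -0.75 to 0.46, adjusted p = 0.706). Its HoipA-KO libraries lay within the WT range. Tap2, Psmb9 and Tapbp had log2 fold changes of 0.53, 0.58 and 0.21 (adjusted p = 0.202, 0.160 and 0.484). Over 11 libraries Tap1 was at 0.54 (adjusted p = 0.102), Nlrc5 at -0.23, Tap2 at 0.33, Psmb9 at 0.40 and Tapbp at 0.02, and again none of these 5 was called.

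**Figure D1:**
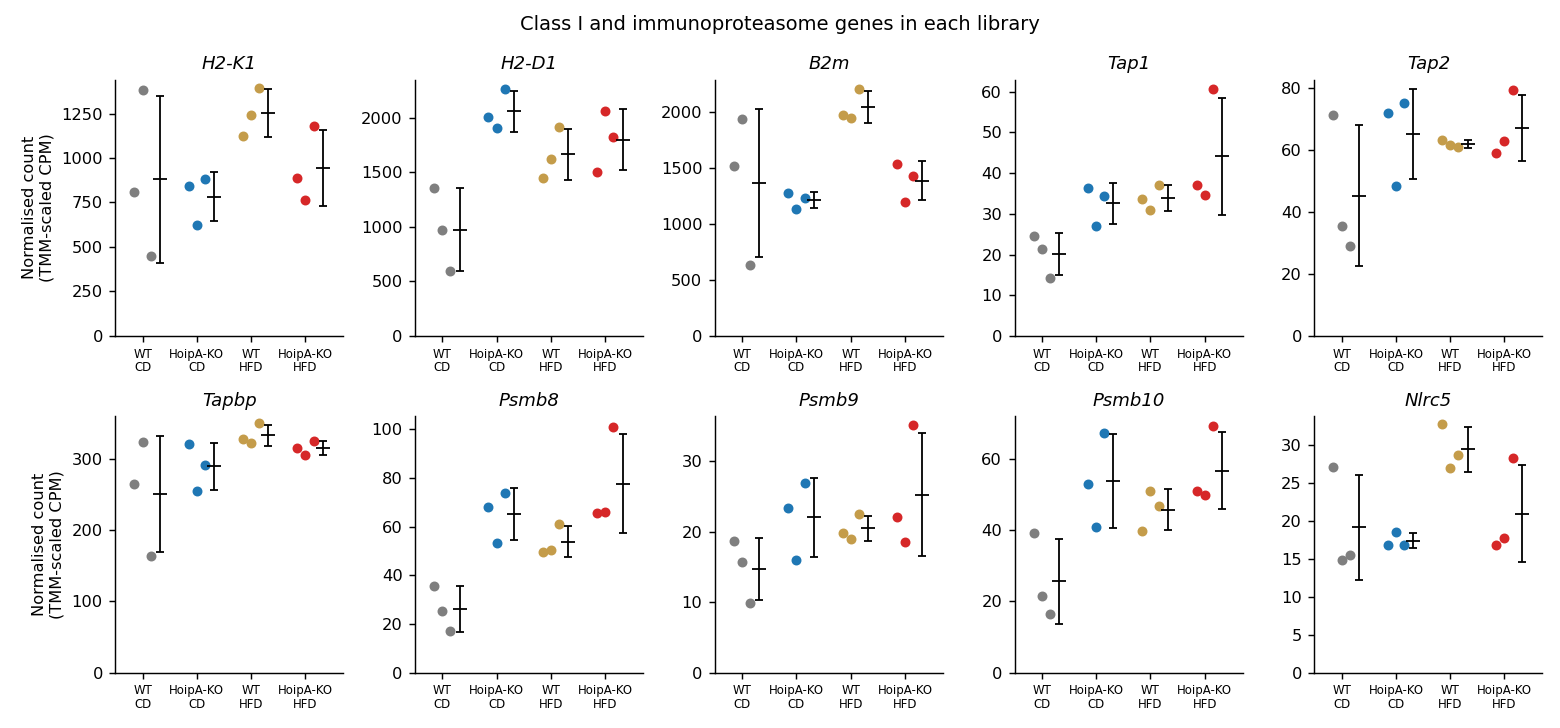
Normalised counts (TMM-scaled CPM, linear axes from 0) of the 10 genes in each of the 12 libraries, grouped by genotype and diet; points are libraries in order of replicate number and bars are the group mean and SD (n = 3). H2-D1, Tap1, Psmb8 and Psmb10 have all HoipA-KO CD libraries above all WT CD libraries, whereas H2-K1 and B2m spread widely in WT CD and are highest on average in WT HFD.

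On HFD no gene of the set was called between genotypes: 0 of 10 at an adjusted p of 0.05 by edgeR, 0 at an unadjusted p under 0.05 and 0 with DESeq2. The shares of all genes were 2.78%, 21.7% and 14.1% in the same order. Over 11 libraries the count was again 0 of 10, with 2 at an unadjusted p under 0.05, against 11.8% and 31.5% of all genes. Psmb8 was at 49.6, 50.5 and 61.2 CPM in WT HFD and at 65.7, 65.9 and 101 CPM in HoipA-KO HFD. This was the only gene of the set with all HoipA-KO libraries above all WT libraries on HFD (20.9% of all genes), and its log2 fold change was 0.53 (95% interval -0.08 to 1.14, adjusted p = 0.293).

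The estimate of B2m pointed the other way on HFD. It was at 1972, 1940 and 2205 CPM in WT HFD and at 1530, 1191 and 1427 CPM in HoipA-KO HFD, and was the only gene of the set with all HoipA-KO libraries below all WT libraries (24% of all genes). The log2 fold change was -0.56 (SE 0.341, adjusted p = 0.374), and -0.55 (adjusted p = 0.0656) over 11 libraries, where DESeq2 called it lower (adjusted p = 0.0027), 1 of the 10 against 23.1% of all genes. H2-K1 was at 1124, 1244 and 1391 CPM in WT HFD and at 886, 766 and 1178 CPM in HoipA-KO HFD, a log2 fold change of -0.41 (adjusted p = 0.561). H2-D1, at 1452, 1625 and 1920 CPM in WT HFD and 1507, 2067 and 1830 CPM in HoipA-KO HFD, had a log2 fold change of 0.11 (95% interval -0.54 to 0.77, adjusted p = 0.864). The libraries of both heavy chains overlapped between genotypes. Of the 9 macrophage markers, 0 were called between genotypes on HFD by edgeR, 6 had an unadjusted p under 0.05 and 6 were called higher by DESeq2.

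HFD in WT mice went with higher estimates for all 10 genes, from 0.41 for Tapbp to 1.05 for Psmb8 on the log2 scale, with a median of 0.60 against -0.05 over all genes. Psmb8 was the only gene called, 1 of 10 upward where 9.05% of all genes were called higher and 15% in either direction. Its log2 fold change was 1.05 (SE 0.276, adjusted p = 0.0344), or 0.83 (adjusted p = 0.0487) over 11 libraries, where 9.35% of all genes were called higher, and its HFD libraries all stood above its CD libraries. The call was lost without WT CD replicate 2 (adjusted p = 0.0602), without WT HFD replicate 1, 2 or 3 (0.0760, 0.101 and 0.139), and without HoipA-KO CD replicate 1 or 3 (0.0574 and 0.0549), which enter this comparison through the shared estimate of the spread. The share of all genes called was 16.6% without WT CD replicate 2. It fell to 6.72%, 4.17% and 3.7% without WT HFD replicate 1, 2 or 3, and to 7.08% and 7.98% without HoipA-KO CD replicate 1 or 3. Without WT CD replicate 1, 6 genes were called, H2-D1, Tap1, Tap2, Psmb8, Psmb10 and Nlrc5, where the share of all genes called rose to 36.3%.

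Next to Psmb8 came Psmb10, H2-D1 and Tap1, with log2 fold changes of 0.84, 0.77 and 0.76 (adjusted p = 0.0899, 0.0972 and 0.0726). DESeq2 called H2-D1 (adjusted p = 0.0354) and Tap1 (adjusted p = 0.0419) beside Psmb8, 3 of 10 against 23.6% of all genes. HFD libraries all stood above CD libraries for 6 genes, H2-D1, B2m, Tap1, Psmb8, Psmb9 and Psmb10, against 17.3% of all genes. Without WT CD replicate 3 the 10 estimates ran from 0.19 to 0.83, each below its value over 12 libraries, so that library carried part of each difference. The 9 macrophage markers gave 8 upward calls in the same comparison, their median being 3.07 on the log2 scale, and their part in the result was not tested.

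In HoipA-KO mice HFD made no called difference to the set (0 of 10 by edgeR, 0 at an unadjusted p under 0.05, 0 by DESeq2). The background here was 0%: edgeR called 0 of the 18074 genes and DESeq2 called 2 genes in all (0.00635%), with 252 genes (1.39%) at an unadjusted p under 0.05 by edgeR. The 10 estimates ran from -0.19 for H2-D1 to 0.44 for Tap1, with a median of 0.19. The libraries of the 2 diets overlapped for each of the 10 genes, and stood apart upward for 3.4% and downward for 2.48% of all genes.

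Whether the effect of genotype differed between diets was tested for each gene as an interaction. No gene of the set passed (0 of 10 by edgeR and by DESeq2, against 2.78% and 10.9% of all genes). All 10 interaction estimates were negative, with a median of -0.37, but the comparisons share the WT CD libraries and 1 estimate turned positive without replicate 3. H2-D1 was the only gene at an unadjusted p under 0.05, as were 21.7% of all genes (interaction -0.97 on the log2 scale, adjusted p = 0.213). Without WT CD replicate 1, H2-D1 (-1.31, adjusted p = 0.0361) and Psmb10 (-1.23, adjusted p = 0.0361) passed, 2 of 10 where 18.3% of all genes passed.

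**Figure D2:**
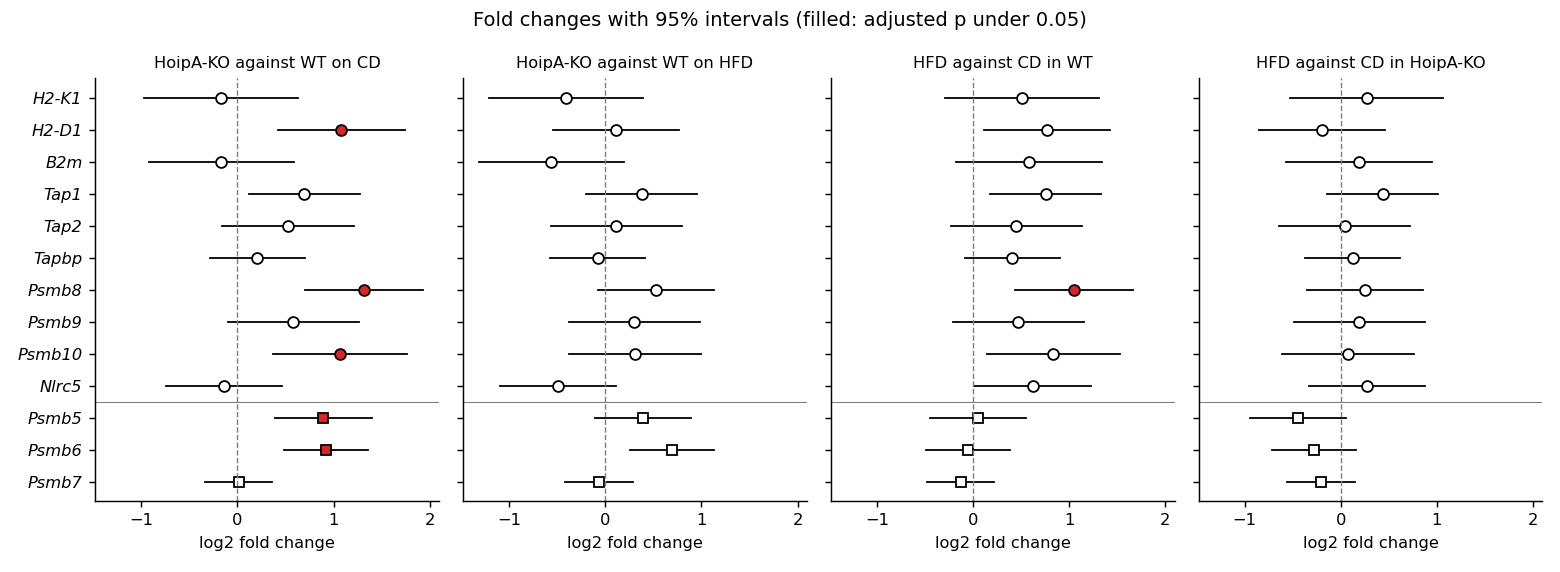
Log2 fold changes (points) with 95% intervals (lines) from edgeR for the 10 genes (circles) and the constitutive catalytic subunits (squares) in 4 comparisons; filled symbols passed an adjusted p of 0.05. Filled symbols are Psmb8, H2-D1, Psmb10, Psmb5 and Psmb6 for genotype on CD and Psmb8 for diet in WT, and the panels for genotype on HFD and for diet in HoipA-KO have none.

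HoipA-KO mice on CD and WT mice on HFD differ in both genotype and diet. In this comparison 0 of 10 genes were called by edgeR and 0 by DESeq2 over 12 libraries, against 5.53% and 16% of all genes. The HoipA-KO CD libraries lay all below the WT HFD libraries for H2-K1, B2m, Tapbp and Nlrc5 (24.6% of all genes) and for 0 genes all above (22.5%). Nlrc5, at 32.7, 27.0 and 28.7 CPM in WT HFD, was the only gene at an unadjusted p under 0.05 by edgeR, against 23.5% of all genes (log2 fold change -0.76, SE 0.274, adjusted p = 0.125). B2m was called lower over 11 libraries (-0.72, adjusted p = 0.0243), as were 9.07% of all genes, and DESeq2 over those libraries called H2-K1, B2m and Nlrc5 lower, with 24.9% of all genes called. For the 4 groups together, mean levels were lowest in WT CD for H2-D1, Tap1, Tap2, Tapbp, Psmb8, Psmb9 and Psmb10, and lowest in HoipA-KO CD for H2-K1, B2m and Nlrc5. Between groups next to each other in those orders, only WT HFD and WT CD for Psmb8 differed past the threshold.

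The ratio of B2m to H2-D1 within a library, which does not depend on library scaling, was picked after the values were seen and is a description without a test. In CPM it was 1.12, 1.99 and 1.07 in WT CD, and WT HFD libraries had 1.36, 1.19 and 1.15. In HoipA-KO libraries it was 0.634, 0.594 and 0.544 on CD and 1.02, 0.576 and 0.780 on HFD. All 6 HoipA-KO libraries lay below all 6 WT libraries. H2-K1 over H2-D1 was 0.599 to 1.42 in WT CD and 0.725 to 0.774 in WT HFD, against 0.328 to 0.419 in HoipA-KO CD and 0.370 to 0.644 in HoipA-KO HFD, so genotypes were apart within each diet but not across diets. Of the 31-base words of its transcripts, H2-K1 shares 22.8% and H2-D1 26.7% with other genes, 358 of them with each other, so reads could be split between them and their levels are less certain. B2m shares none with another gene.

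**Figure D3:**
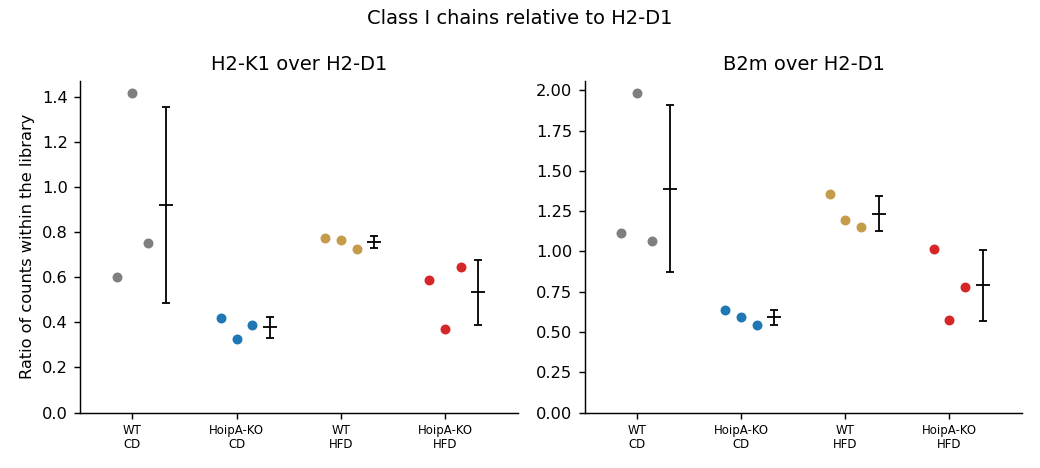
Counts of H2-K1 (left) and B2m (right) divided by those of H2-D1 in the same library (no unit, linear axes from 0), for the 4 groups; points are libraries and bars the group mean and SD (n = 3). HoipA-KO libraries sit at 0.544 to 1.02 for B2m over H2-D1, below the WT libraries at 1.07 and above.

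Over the 12 libraries the genes fell into groups by Pearson's correlation of log2(CPM + 1), given as a description, since libraries share their depth and scaling and WT CD replicate 3 was lowest for 9 of the 10. Psmb8 correlated at 0.964 with Psmb10 and 0.953 with Tap1, and Tap1 at 0.942 with Psmb9. H2-D1 went with the immunoproteasome genes, at 0.917 with Psmb10 and 0.910 with Psmb8. H2-K1 and B2m went together at 0.930, while H2-K1 and H2-D1 correlated at only 0.340. Nlrc5 had no correlation above 0.569, its value with B2m. Among 10260 other genes with a mean of at least 10 CPM, those whose pattern was most like the mean standardised level of the set were Plekhg3 (r = 0.968), Tax1bp3 (0.959), Uba7 (0.949), Yipf3 (0.949) and Pdgfb (0.948).

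**Figure D4:**
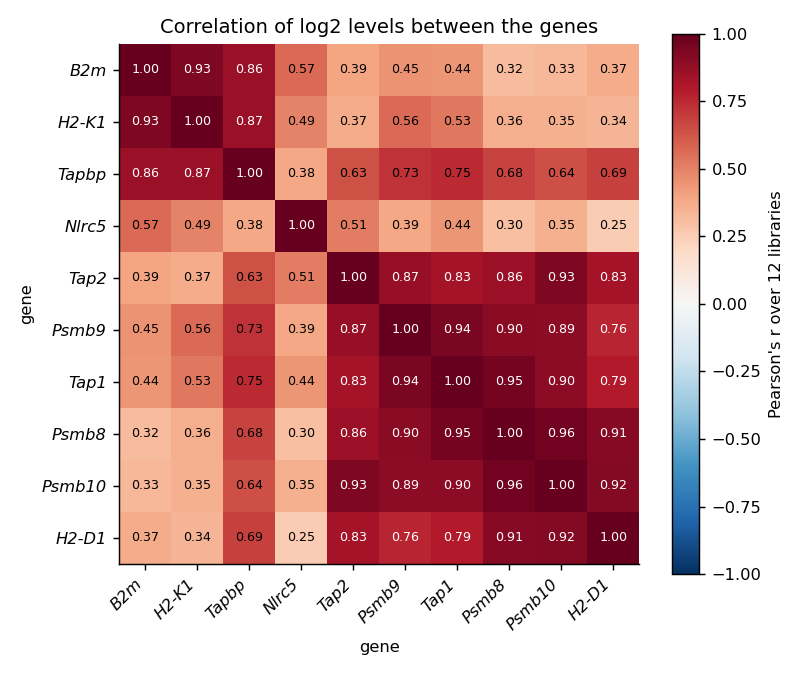
Pearson's r (colour scale and printed value) between the log2 levels of each pair of the 10 genes over 12 libraries; the genes are ordered by hand. B2m, H2-K1 and Tapbp form a block of 0.86 to 0.93, and Tap2, Psmb9, Tap1, Psmb8, Psmb10 and H2-D1 another, with values between the blocks as low as 0.32.

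The immunoproteasome subunits were set against the constitutive subunits they replace. On CD, Psmb5 rose in HoipA-KO from 87.7 ± 21.9 to 163 ± 26.7 CPM (mean ± SD, n = 3; log2 fold change 0.89, adjusted p = 0.0146) and Psmb6 from 117 ± 20.9 to 221 ± 37.1 CPM (0.92, adjusted p = 0.00712). Psmb7 was at 130 ± 24.8 and 131 ± 7.58 CPM (0.01, adjusted p = 0.954). Over 11 libraries the 3 gave 0.75, 0.93 and -0.06, with the same 2 called. For diet in WT, 0 of the 3 were called by edgeR or by DESeq2 and 0 had an unadjusted p under 0.05, with log2 fold changes of -0.13 to 0.05.

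The log2 ratio of each pair was compared by an exact two-sided permutation test of the library labels within diet or within genotype (400 arrangements, smallest possible p 0.005), with adjustment over the 6 tests. Psmb10 over Psmb7 was 0.152 to 0.251 in WT CD, 0.303 to 0.498 in HoipA-KO CD, 0.345 to 0.419 in WT HFD and 0.411 to 0.613 in HoipA-KO HFD. It was higher in HoipA-KO than in WT by 0.74 on the log2 scale (exact permutation p = 0.01, adjusted p = 0.03), as a mean of 1.11 on CD and 0.36 on HFD. The difference between HFD and CD was 0.67 (exact permutation p = 0.025, adjusted p = 0.05, at the threshold and not under it).

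Psmb8 over Psmb5 differed between diets. It was 0.268 to 0.339 in WT CD, 0.349 to 0.474 in HoipA-KO CD, 0.478 to 0.678 in WT HFD and 0.466 to 0.881 in HoipA-KO HFD. The ratio was higher on HFD by 0.86 on the log2 scale (exact permutation p = 0.01, adjusted p = 0.03) and differed by 0.28 between genotypes (exact permutation p = 0.175, adjusted p = 0.175). Psmb9 over Psmb6 was lowest of the 3 ratios, at 0.0773 to 0.212, with a diet difference of 0.50 (exact permutation p = 0.04, adjusted p = 0.06) and a genotype difference of -0.39 (exact permutation p = 0.105, adjusted p = 0.126). Without WT CD replicate 3, where fewer arrangements exist, both called ratios had an adjusted p of 0.0525, with differences of 0.66 for Psmb10 over Psmb7 and 0.83 for Psmb8 over Psmb5.

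**Figure D5:**
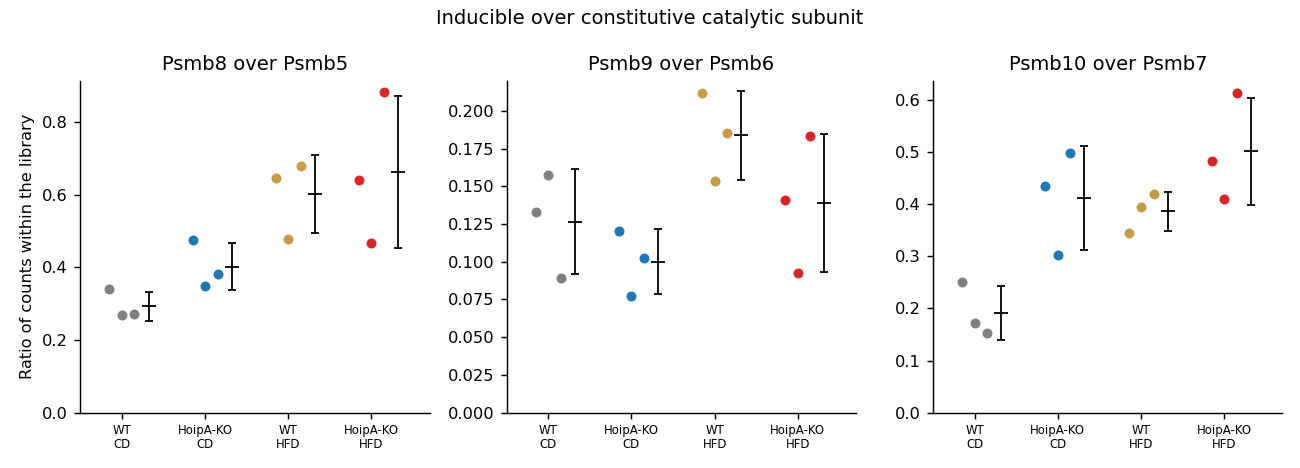
Counts of each inducible subunit divided by those of its constitutive counterpart in the same library (no unit, linear axes from 0), for the 4 groups; points are libraries and bars the group mean and SD (n = 3). Psmb8 over Psmb5 is 0.268 to 0.339 in WT CD and 0.466 or above in both HFD groups, and Psmb10 over Psmb7 is lowest in WT CD at 0.152 to 0.251.

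Of 95 genes in related lists, the 3 constitutive subunits included, 27 were called between genotypes on CD, and 26 of these kept the call over 11 libraries, where Klrk1 lost it and Mr1 gained one. For diet in WT 16 were called, and 10 kept the call. Of all genes, 34.7% were called between genotypes on CD (15.6% higher) and 15% for diet in WT (9.05% higher). Between genotypes on HFD the share was 2.78%. The counts of each list below are to be read beside these shares. Klrk1, Mr1 and the genes named below for a lost call were named after their values were seen. Among 12 other class I genes tested, 4 rose and 1 fell in HoipA-KO on CD. H2-T23, the nonclassical molecule Qa-1 that engages natural killer receptors, went from 52.5 ± 13.5 to 199 ± 37.8 CPM (n = 3; log2 fold change 1.92, SE 0.240, adjusted p = 0.000345). H2-T22 and H2-Q4 gave -0.01 and 0.34 (adjusted p = 0.985 and 0.367). The other calls, named for having passed, were H2-T24, H2-M2 and H2-M3 upward (1.40, 2.43 and 1.52) and H2-Q10 downward (-2.50). H2-M2 had few counts, at 0.171 to 0.369 CPM in WT CD and 0.836 to 1.80 CPM in HoipA-KO CD. In WT, 5 rose on HFD, with H2-T23 at 1.03 (adjusted p = 0.0203) and H2-Q4 at 1.07 (adjusted p = 0.0365), falling to 2 over 11 libraries, where H2-Q4, H2-T24 and H2-M3 were no longer called. Between genotypes on HFD, 0 of the 12 were called by edgeR, 3 had an unadjusted p under 0.05 and 1 was called by DESeq2.

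Among 6 class I-like genes, Cd1d1, which presents lipids to NKT cells, fell in HoipA-KO on both diets. It was at 218 ± 129 CPM in WT CD and 76.0 ± 10.5 CPM in HoipA-KO CD (log2 fold change -1.52, adjusted p = 0.0175), and at 301 ± 61.6 and 72.7 ± 27.0 CPM on HFD (-2.05, adjusted p = 0.036). Procr was the only one of the 6 to rise on CD (2.76, adjusted p = 0.00221). Fcgrt and Hfe gave 0.21 and -0.11 on CD (adjusted p = 0.629 and 0.793).

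The loading chaperones and trimming enzymes gave 0 of 8 calls between genotypes on CD and on HFD and for diet in WT, by edgeR and by DESeq2. Calr, the calreticulin chaperone, was at 677 ± 308 CPM in WT CD and 1061 ± 175 CPM in HoipA-KO CD (log2 fold change 0.65, adjusted p = 0.131). Hspa5 and Pdia3, chaperones of the endoplasmic reticulum, gave 0.05 and 0.44 (adjusted p = 0.941 and 0.290). In edgeR 0 of the 8 had an unadjusted p under 0.05 in these comparisons, and with DESeq2 2 had 1 between genotypes on HFD. Of 11 structural 20S subunits 1 rose on CD, Psma5 (0.86, adjusted p = 0.0121), while those of highest CPM, Psma6, Psmb1 and Psma1, gave -0.22, 0.34 and 0.42 (adjusted p = 0.436, 0.244 and 0.257). Of 9 activator and assembly genes 1 fell, Psmg1 (-0.65, adjusted p = 0.0271). Psme2, part of the interferon-induced PA28 activator, gave 0.31 (adjusted p = 0.405). Pomp, the proteasome maturation protein, gave 0.50 (adjusted p = 0.144), and Psme4, the PA200 activator, gave -1.05 (adjusted p = 0.0976) but -0.08 over 11 libraries.

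Among 17 upstream regulators tested, 5 rose and 0 fell in HoipA-KO on CD. These were the receptor chains Ifngr2 and Ifnar1 (1.61 and 1.23), the kinases Jak1 and Tyk2 (0.81 and 1.11) and Ciita, the class II transactivator (1.81, adjusted p = 0.011). For diet in WT, which shares the WT CD libraries, these 5 gave 1.04, 0.81, 0.79, 0.70 and 2.01 in the same order and were called, and over 11 libraries Ifngr2 and Ciita were called and Ifnar1, Jak1 and Tyk2 were not. Ifngr1 and Ifnar2, further receptor chains, gave -0.17 and 0.67 on CD between genotypes (adjusted p = 0.684 and 0.0671). Irf1, an interferon-induced transcription factor, gave 0.26 (adjusted p = 0.541). Ifng had too few counts to be tested, at 0 to 0.196 CPM in the 12 libraries.

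Of 13 genes that interferon gamma induces, Irgm1 rose (0.78, adjusted p = 0.0274) and Cxcl9 fell (-1.61, adjusted p = 0.0364) in HoipA-KO on CD. Gbp2, an interferon-induced GTPase and the most abundant of the list, was at 50.8 ± 25.3 and 47.7 ± 9.70 CPM (-0.09, adjusted p = 0.846), and Irgm2, another, gave 0.43 (adjusted p = 0.202). For diet in WT and for genotype on HFD, 0 of the 13 were called by edgeR, with 3 at an unadjusted p under 0.05 each time, while DESeq2 called 2 for diet in WT and 1 for genotype on HFD.

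Of 6 genes of cross-presentation, the loading of outside peptides on class I, 4 rose in HoipA-KO on CD and 4 rose on HFD in WT. Ctss, a lysosomal protease of macrophages and dendritic cells, went from 46.7 ± 9.35 CPM in WT CD to 2322 ± 278 CPM in HoipA-KO CD (log2 fold change 5.64, adjusted p = 0.000111) and 579 ± 312 CPM in WT HFD (3.63, adjusted p = 0.00158). Cybb, an oxidase subunit of phagocytes, rose by 4.79 (adjusted p = 0.000164) on CD, while Lnpep gave -0.11 (adjusted p = 0.816).

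The class I receptors and cytotoxic genes gave 5 upward calls of 10 on CD. Pirb, a class I receptor of myeloid cells, went from 12.5 ± 2.64 to 376 ± 71.9 CPM (log2 fold change 4.91, adjusted p = 0.000111), and Lilrb4a gave 4.29 (adjusted p = 0.000111). Klrk1, the activating NKG2D receptor of lymphocytes, stood at 1.53 ± 0.153 and 3.66 ± 1.29 CPM (1.26, adjusted p = 0.0348; 0.0502 over 11 libraries). Cd8a was at 0.541 ± 0.250 and 1.39 ± 0.815 CPM and was not called (1.36, adjusted p = 0.0741). T cell markers summed to 7.9 to 12.2 CPM in WT CD and 8.84 to 25.3 CPM in HoipA-KO CD, with 1 of 7 called. Macrophage markers rose by a median of 4.63 on the log2 scale on CD beside a largest rise of 1.32 in the set, and their part in the higher Psmb8, H2-D1 and Psmb10 was not tested.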

How the data were processed

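The authors trimmed reads with Trim Galore 0.6.7 and quantified them with STAR 2.7.10a and Salmon 1.5.2 against GRCm38 (per the labels' processing notes; the study's methods name a human build), and deposited estimated counts per gene. Whether Salmon used strand is not given in the sources used here. Deposited columns of the authors' own comparisons were not used. The estimated counts were rounded, filtered with filterByExpr, scaled by TMM and fitted over all 12 libraries with 4 groups in edgeR 4.0.16 (R 4.3.3; glmQLFTest, Benjamini-Hochberg, threshold 0.05). DESeq2 1.42.0 was an alternative, as were other scalings and filters, a replicate block, fits of the groups compared alone and leaving out each library. Exon lengths came from GENCODE (GRCm38; 94.1% of IDs matched). Ratios used log2(count + 0.5). The tests were tried on simulated counts. Named genes were the 10 genes, the 3 constitutive subunits, the 3 of highest mean CPM in each pathway list, 4 set regulators and 5 like genes; other genes are named for having passed, and 1 gene under this rule is not reported here; marker lists are given as counts and sums. Members and lists were chosen with earlier results of these data known. Nothing in the labels says that libraries came from separate cohorts, so p-values measure the spread between pools.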

Additional observations from a re-analysis of the deposited data

Results flagged for a closer look

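Of the 95 genes in related lists outside the set of 10, 6 were called by edgeR's interaction test (adjusted over all genes, 3 libraries per group). Of all genes, 2.78% were called. The log2 interaction, the genotype effect on HFD minus that on CD, was -4.09 for Ctss, -3.74 for Cybb, -2.70 for Rac2, -3.64 for Pirb and -3.21 for Lilrb4a (adjusted p = 0.0131 for each of these but Cybb, at 0.0159). Ctss, Cybb, Rac2, Pirb and Lilrb4a are known from myeloid cells. Of the 9 macrophage markers 6 had a negative interaction that passed as well, and their part in these values was not tested. For H2-M2, a nonclassical class I gene at only 0.171 to 1.80 CPM over the libraries, the interaction was -2.82 (adjusted p = 0.0423). That call was lost without WT CD replicate 3 (-2.78, adjusted p = 0.0504), while the other 5 genes kept theirs (adjusted p = 0.0256 to 0.0301).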

How the results depend on the processing

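Over up to 23 alternatives per comparison, the number of genes of the set called between genotypes on CD stayed within 1.5 times of 3, except for 1 (Psmb8) both at an adjusted p of 0.01 and when only the 2 groups were fitted (12.5% of all genes called), and 1 to 5 when each library was left out in turn, the lowest without HoipA-KO CD replicate 1 or 3 and the highest without WT CD replicate 1. Of all genes, 16% and 18.4% were called between genotypes on CD without HoipA-KO CD replicate 1 or 3, and 42.6% without WT CD replicate 1. For diet in WT the count of 1 became 0 without a filter on low counts, with a replicate block, at an adjusted p of 0.01 and with only the 2 groups fitted, 3 with DESeq2, and 0 to 6 when a library was left out, the highest without WT CD replicate 1. The share of all genes called for diet in WT also moved, from 15% in the main fit. It was 3.6% without the filter, 7.97% with the block, 0% with only the 2 groups fitted and 23.6% with DESeq2. The interaction count of 0 became 0 to 2 when a library was left out. Between genotypes on HFD, DESeq2 over 11 libraries gave 1 (B2m). For HoipA-KO CD against WT HFD the count of 0 became 3 (H2-K1, B2m and Nlrc5 lower) with only the 2 groups fitted, where 27.5% of all genes were called, and 3 with DESeq2 over 11 libraries, an alternative chosen after seeing the data, and 0 to 1 when a library was left out. The causes were not tested. Over all genes, 503 were called between genotypes on HFD, against 2179 over 11 libraries, 2525 with DESeq2 and 56 without a filter. With only the 2 groups fitted the number was 3038. Dropping a single library gave from 0 to 2179 genes, and 0 whichever of the HoipA-KO CD libraries was dropped. The share of all genes called was smaller on HFD than on CD in the main fit (2.78% against 34.7%). It was larger on HFD with only the 2 groups fitted (18% against 12.5%), so that order depended on the fit.

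The log2 ratios with a library left out ranged from 0.17 to 0.40 (Psmb8 over Psmb5, genotype), 0.74 to 0.97 (the same, diet), -0.50 to -0.25 (Psmb9 over Psmb6, genotype), 0.39 to 0.64 (the same, diet), 0.66 to 0.84 (Psmb10 over Psmb7, genotype) and 0.57 to 0.77 (the same, diet). The calls of Psmb8 over Psmb5 for diet and of Psmb10 over Psmb7 for genotype were lost without WT CD replicate 3 (adjusted p = 0.0525 for both) and without HoipA-KO CD replicate 1 (0.92 and 0.71, exact permutation, adjusted p = 0.05 for both). Without HoipA-KO HFD replicate 2 the other diet ratios (adjusted p = 0.03 for both) and Psmb8 over Psmb5 for genotype (0.048) passed, and the other diet ratios also passed without WT CD replicate 2 (0.045 for both), Psmb10 over Psmb7 for diet alone without HoipA-KO CD replicate 3 (0.04). Signs that turned were all of estimates not called. With library size alone Tapbp on HFD was 0.026, and with DESeq2 over 11 libraries Tapbp on CD was -0.019 and the H2-K1 interaction 0.11. With a library left out the estimates ranged on CD from -0.44 to 0.32 for H2-K1, -0.47 to 0.18 for B2m and -0.29 to 0.23 for Nlrc5; on HFD from -0.019 to 0.20 for Tap2 and -0.010 to 0.48 for Psmb9; for diet in HoipA-KO from -0.13 to 0.16 for Tap2, -0.12 to 0.37 for Psmb9, -0.093 to 0.27 for Psmb10 and -0.0097 to 0.41 for Nlrc5; for HoipA-KO CD against WT HFD from -0.12 to 0.065 for Tap1, -0.039 to 0.25 for Tap2 and -0.056 to 0.30 for Psmb9; and for the H2-K1 interaction from -0.73 to 0.051.

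Replicate numbers gave no clear pairing of the libraries, though this was not tested: deviations of libraries with the same number correlated at a median of 0.02 over 18 pairs (-0.45 to 0.49), against 0.004 over 36 other pairs. A replicate block changed 1 call of the set, Psmb8 for diet in WT (adjusted p = 0.0641). With the block 7.97% of all genes were called for diet in WT, against 15% without it. Between genotypes on CD the shares were 27.8% with the block and 34.7% without it. The 10 genes had 536 counts or more in each library. For them, pools of 3 mice, 3 per group, and the spread in WT CD limit precision more than depth.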

Other observations

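Psmb6, the constitutive subunit that Psmb9 replaces, was the only one of the 3 constitutive subunits called between HoipA-KO on CD and WT on HFD (log2 fold change 0.97, SE 0.198, adjusted p = 0.030 by edgeR). In that comparison 0 of the 10 genes of the set and 5.53% of all genes were called. Over 11 libraries Psmb5 (0.87, adjusted p = 0.017) passed as well, and Psmb6 also passed between genotypes on HFD (0.71, adjusted p = 0.0462), where 11.8% of all genes were called. Its counts in HoipA-KO were 194, 207 and 264 CPM on CD and 156, 201 and 191 CPM on HFD, and in WT 140, 99.4 and 112 CPM on CD and 93.7, 124 and 121 CPM on HFD. All 6 HoipA-KO libraries lay above all 6 WT libraries. The share of all genes with that separation was not counted. HoipA-KO libraries stood all above WT libraries for 20.1% of all genes on CD and 20.9% on HFD. For HoipA-KO CD above WT HFD the share was 22.5%.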
